A study of Mus musculus with 4 samples.

Results

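The lower eyelid of female mice was compared at 3 months and at 2 years of age. The comparison rests on 2 of the 4 libraries of the study: 1 from females of 3 months, called here the young female library, and 1 from females of 2 years, the old female library. Both groups were of the inbred strain C57BL/6 and wild type, and the labels give no treatment. The remaining 2 libraries came from wild-type C57BL/6 males of the same ages and are used as values side by side. Excised lids were frozen in liquid nitrogen before total RNA was taken on Qiagen columns for Illumina sequencing, and the number of animals behind each library is not stated in the labels. With 1 library a side there is no replicate, so no difference below has an error, a test or a p-value, and an animal, a dissection and an age cannot be told apart.

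The lid margin is lined on its inner side by conjunctiva, a wet stratified epithelium with mucus-secreting goblet cells, and on its outer side by hair-bearing skin. Between them lie the meibomian glands, relatives of sebaceous glands, whose cells fill with wax and sterol esters, burst and release their lipid onto the tear film. Around the glands run dermis, vessels and the striated orbicularis muscle that closes the lid. A library of whole lid mixes the RNA of all these tissues, and a bulk value cannot tell fewer cells of a type from less RNA per cell.

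Gene levels are given in RPKM, reads normalised to gene length and library size, as the authors deposited them. The difference with age in females is given as log2 of the ratio of the old to the young library after 1 RPKM was added to each value, and genes at least 2-fold apart on that scale are counted. Of 15816 gene symbols in any sheet, 14281 were listed in all 4 libraries, and the 12073 of these whose mean over the 4 reached 1 RPKM were analysed. At that edge, Mir7091 was just inside, with 0.755 and 1.42 RPKM in the female libraries and 1.02 and 0.807 in the male ones, and Kcnv1 just outside with a mean of 0.9993.

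The old female library stood apart from the other libraries before any gene was named. Across the 12073 genes its log2 values gave a Pearson's r of 0.940 against the young female and of 0.968 and 0.967 against the young and old male libraries. Pairs that leave it out gave 0.985 to 0.988; these are correlations across genes, which are no replicates. It listed the most genes (15299 against 14800 to 15009) from the least summed coverage (3.16 gigabases against 3.78 to 3.91), and its 10 most abundant genes held the smallest share of RPKM (7.37% against 9.85% to 13.5%). Markers of skin (Krt10), conjunctiva (Krt13 and Muc5ac), gland (Pparg and Awat2), hair (Krt71), muscle (Acta1) and dermis (Col1a1) were listed in both female libraries. The goblet cell markers Muc2 and Tff3 and the sebaceous marker Hsd3b1 were listed in no sheet. Sag of the retina was listed in neither, and Krt12 of the cornea had 0.982 and 0.179 RPKM. Of the lacrimal and Harderian markers, Scgb1b27 and Pip were listed in neither female library, and Amy1 lay below the mean of 1 RPKM. Xist, which coats the silenced X, had 10.7 and 11.8 RPKM in the female libraries and was not listed in the male ones.

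The most abundant transcript was not the same at both ages. In the young female library it was Gsto1, a glutathione transferase, with 20930.0 RPKM or 4.75% of all RPKM, followed by the basal keratin gene Krt15 with 7744 RPKM and the actin-binding peptide gene Tmsb4x with 7045. In the old female library it was Scd1, the desaturase that makes oleate, with 6123 RPKM or 1.51%, against 1493 RPKM in the young library. Gsto1 came next in the old library with 5934 RPKM, and Krt15 and Tmsb4x had 2327 and 2407. Elovl1, an elongase of very long fatty acids, stood among the 10 most abundant genes of the old library alone, with 2248 RPKM. Krt5, Krt13, Pglyrp1 and Emp1, all genes of stratified or defensive epithelium, stood among those of the young library alone. RPKM are shares of a library, so a transcript that holds less leaves more to the others.

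Of the 12073 genes, 640 lay 2-fold or more higher in the old female library and 400 at least 2-fold lower, which is 5.30% and 3.31%. Counts of called genes in the lists below are to be read against these shares. At least 4-fold higher were 106 and at least 8-fold higher 10, against 75 and 21 lower. Lower genes were the more numerous past 8-fold and higher genes past 4-fold and 2-fold, and the ratios as a whole leaned up: 7141 genes lay above 0 and 4931 below, with a median of 0.08, an SD over genes of 0.60, and percentiles 5 and 95 at -0.82 and 1.03. In males of the same ages 96 genes (0.795%) lay 2-fold or more higher and 25 (0.207%) lower, and the SD was 0.27. At the 2-fold line, Adck1 was just past it with a log2 ratio of 1.0009 and Deptor, with 2.54 and 6.09 RPKM, just short, and on the lower side Il20ra was just past with -1.0011 and Agpat4 just short with -0.9974. Genes with a mean of 100 RPKM or more were called most often, 74 of 673 higher and 73 lower, and of genes of 1 to 2 RPKM 7.94% were called higher and 1.59% lower.

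**Figure D1:**
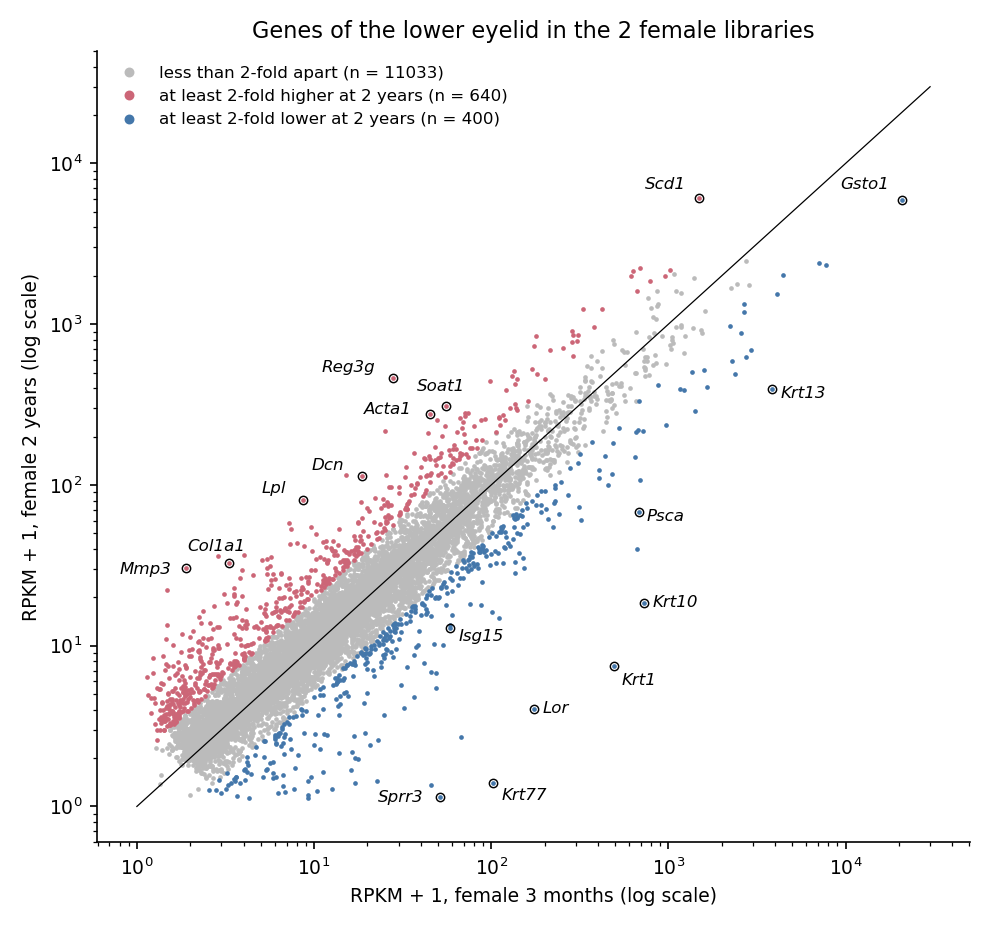
RPKM + 1 of each of the 12073 analysed genes in the young (x axis) and old (y axis) female library, both on log scales, with the line of equal values. The 640 genes higher and 400 lower at 2 years by 2-fold or more are coloured, and Krt1, Krt10, Krt77, Lor and Sprr3 lie furthest below the line.

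The male libraries lay between the female ones for most of these genes. Of the 640 higher genes, both male values lay between the 2 female values in 541 (84.5%), and of the 400 lower genes in 336 (84.0%). These genes were chosen for a wide gap between the female libraries, which favours male values between them. The 2 shares are therefore a description and no support. The old female library was the one further from the male median for 488 of the 640 (76.2%) and for 324 of the 400 (81.0%), and it lay 2-fold or more beyond both male libraries for 122 and 101 of them, against 12 and 9 for the young one. The old library therefore carried more of the difference than the young one, but not all of it. In males the same genes did not follow: of the 640, 297 had a male ratio above 0 and 343 below, with a median of -0.06, and of the 400, 113 had a male ratio below 0, with a median of 0.21. Of the 640, 67 (10.5%) were also at least 2-fold higher in the old male library, where they made up 69.8% of the 96, and of the 400, 13 (3.25%) were also lower, 52.0% of the 25.

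The male libraries also had an order between the female ones. In 329 of the 640 higher genes the level went up from the young female library through the old male and the young male to the old female, and in 247 of the 400 lower genes it went down in that same order. In this order age runs one way in females and the other way in males. The choice of genes sets the female libraries at the ends for the 541 and 336 genes above, so only the order of the males within them is information, and the share is not to be read against that of all genes. Over all 12073 genes, 17.7% went up and 12.4% down in this order. Among lipid genes, 20 of 31 peroxisome, 16 of 32 cholesterol synthesis, 11 of 20 elongase and desaturase and 13 of 26 lipid droplet genes went up in it. Of other lists, 52 of 77 ribosomal protein, 10 of 17 tight junction and 15 of 31 interferon-induced genes went down in it. None of the 18 fast muscle fibre genes followed it, and of the 25 fibroblast genes 4 went up and 2 down in it.

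**Figure D2:**
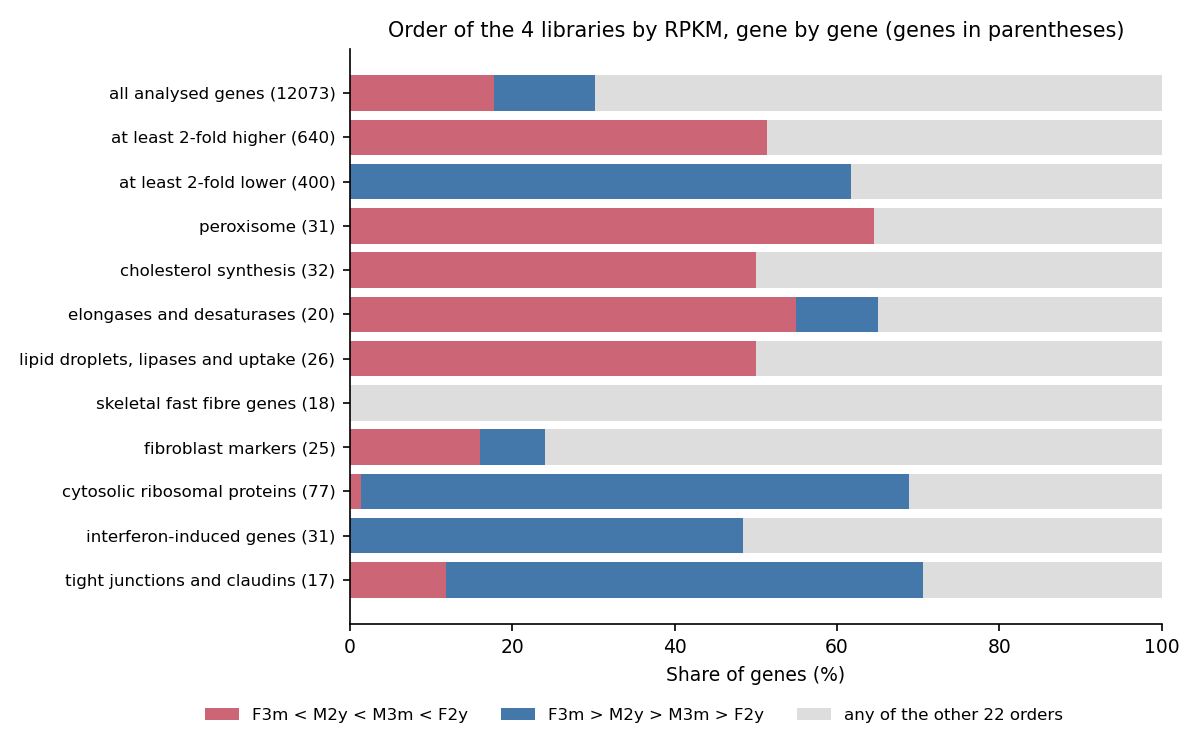
Share of genes (x axis, percent) in which RPKM goes up (red) or down (blue) from the young female (F3m) through the old male (M2y) and young male (M3m) to the old female library (F2y), for all analysed genes, for the genes 2-fold apart in females and for 9 gene lists. Peroxisome genes went up in this order in 20 of 31 and ribosomal protein genes went down in it in 52 of 77, while no fast muscle fibre gene followed it.

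Suprabasal keratins of the skin gave the largest differences in the lid. These keratins form the filaments of epidermal cells that have left the basal layer. All 6 analysed members of 7 lay 2-fold or more lower at 2 years, against 3.31% of all genes, with a median log2 ratio of -4.23 where all genes had 0.08. Krt77, a keratin of sweat ducts and skin, had 101 RPKM in the young female, 0.398 in the old female, 15.7 in the young male and 3.29 in the old male library. Krt1, the partner of Krt10, had 490.1, 6.46, 515 and 380.2 RPKM in the same order, and Krt10 had 732, 17.5, 625 and 512. For both, the old female library was the 1 low library and the other 3 stood close together. Krt78, Krt80 and Krt23 followed with log2 ratios of -3.15, -1.14 and -1.04 and male ratios of 0.07 to 0.40. Krt2, the remaining member, was below the mean of 1 RPKM.

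The proteins that are cross-linked into the dead outer shell of the epidermis behaved as the suprabasal keratins did. Of 25 analysed late cornified envelope genes 22 lay 2-fold or more lower at 2 years, 0 higher, with a median of -2.47. Lor, loricrin, the main shell protein, had 173 RPKM in the young female, 3.02 in the old female, 164 in the young male and 65.8 in the old male library. Lce1m had 45.0, 0.356, 22.8 and 4.79 RPKM, and Lce1c 16.1, 0.392, 16.2 and 7.10. These genes were lower with age in males as well, by -1.30, -2.04 and -1.08. The Lce3 genes parted from them in males: Lce3a had 66.8 and 1.71 RPKM in the female libraries against 28.8 and 61.4 in the male ones, and Lce3b 9.35 and 0.253 against 7.13 and 23.2. The 3 members that were not lower were Crct1 (336 and 371 RPKM), Lce3c (5.69 and 2.92, log2 -0.77) and Lce3d (0.941 and 1.06). The Lce genes are near-identical copies, and the sources used here do not say how reads were shared between them.

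The shell proteins that are laid down earlier, and the S100 proteins, were lower in part. Of 17 small proline-rich, involucrin and related genes 6 lay 2-fold or more lower and 2 higher with a median of 0.02, and of 11 epithelial S100 genes 4 were lower and 1 higher with a median of -0.30. Ppl and Evpl, which tie the shell to keratin filaments, had 229 against 78.1 and 189 against 66.5 RPKM in the young and old female libraries. S100a6 had 2561, 877, 1593 and 2377 RPKM in the young female, old female, young male and old male libraries, and S100a10 1219, 386, 649 and 918. In both S100 genes the young female library was highest and the old male exceeded the young male. Ivl, involucrin itself, had a ratio of 0.02, and Sprr1a 0.46.

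Most of these genes lie in 1 stretch of the genome, the epidermal differentiation complex. On chromosome 3 of mm10, from 90514435 to 93564645, lay 47 of the 53 analysed late cornified envelope, small proline-rich and S100 genes, and 28 of the 47 lay 2-fold or more lower at 2 years and 3 higher. Neighbours within it differed in direction. Sprr3, a small proline-rich protein of wet epithelia at 92456502 to 92458720, had 50.6 RPKM in the young female and 0.139 in the old female library, against 42.1 and 62.1 in the male ones, a log2 ratio of -5.50. Sprr2f and Sprr2g, at 92365187 to 92366442 and 92373915 to 92375229, had 97.2 and 442 RPKM and 4.63 and 30.5 RPKM in the young and old female libraries, log2 ratios of 2.17 and 2.49. Both exceeded the 2 male libraries, which had 170.2 and 207 RPKM of Sprr2f. S100a8, an antimicrobial calcium-binding protein of neutrophils and stressed epithelium, was the third higher gene, with 16.8 and 37.8 RPKM, but it had 90.4 and 103 in the males, so both female libraries were low.

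Keratins of wet epithelium were lower too, and here the old males went the other way. Of 7 analysed mucosal, corneal and simple keratins 4 lay 2-fold or more lower at 2 years, 0 higher, with a median of -1.61 in females and 0.53 in males. Krt13, the keratin of non-cornified surface cells, had 3842 RPKM in the young female, 392 in the old female, 2286 in the young male and 3080.5 in the old male library. Its partner Krt4 had 2390.4, 486, 1663 and 2541 RPKM. In both, the old female library was the low one and the old male exceeded the young male. Krt7 and Krt19 had log2 ratios of -1.74 and -1.61 in females and 0.59 and 0.37 in males, while Krt8 and Krt18, keratins of simple and glandular epithelium, had -0.36 and 0.73. Psca, a membrane-anchored protein of surface epithelia on chromosome 15 from 74714839 to 74717065, had 679, 66.5, 341 and 803 RPKM, and it was 1 of 7 genes at least 2-fold lower in females and at least 2-fold higher in males.

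Basal and stress keratins were lower by less. Of 7 members 4 lay 2-fold or more lower, with a median of -1.41. Krt6b and Krt6a, keratins of stressed epithelium and of ducts, had 1407 against 289 RPKM and 1361 against 503 in the young and old female libraries. Krt5 had 4112 and 1544 RPKM, while its partner Krt14 had 2248 and 1685, a log2 ratio of -0.42. Krt17, a keratin of hair follicle sheath and gland ducts, was the 1 member above 0, with 871 and 1328 RPKM. Hair keratins, in contrast, hardly differed: of 22 analysed members 0 were lower and 1 higher, with a median of 0.06 and Krt71, Krt25 and Krt27 at log2 ratios of 0.11, 0.34 and -0.32. The 1 higher member was Krt79, a keratin of the sebaceous duct rather than the hair shaft, with 666 and 1603 RPKM.

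Other genes of surface epithelium were lower in the old female library in part. Of 20 kallikreins and protease inhibitors, which regulate shedding, 7 lay 2-fold or more lower and 1 higher: Serpinb3a, a protease inhibitor of squamous cells, had 660.4 and 38.9 RPKM, Klk14 had 35.8 and 3.83, and Klk6 was the higher one with 51.3 and 158. Of 17 tight junction genes 5 were lower and 1 higher with a median of -0.81: Cldn23 had 83.6 and 29.6 RPKM, Cldn7 227 and 98.7, and the higher gene was the endothelial Cldn5. Cldn5 reached the mean of 1 RPKM only through the old female value. The skin claudin Cldn1 had 71.9 and 124 RPKM, so it lay on the opposite side from Cldn23 and Cldn7. Among 14 desmosome genes 1 was lower and 0 higher, against 3.31% and 5.30% of all genes. The lower one was Dsc2, with 227 and 95.4 RPKM, and Dsp had 238 and 237. Of 20 epidermal transcription factors 4 were lower, Hopx, Elf3, Grhl3 and Pax6 (log2 -1.53 to -1.10), and 2 higher, Pitx1 and Cebpa (1.47 and 1.14).

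Some growth factor and cytokine genes were lower, though most were not 2-fold apart. Of 19 ligands and receptors of the EGF and FGF families 3 lay 2-fold or more lower and 1 higher: Hbegf and Ereg, ligands that drive keratinocyte growth, had 41.8 against 14.7 RPKM and 12.5 against 4.97, the feedback inhibitor Spry1 had 17.5 against 7.99, and the higher gene was the mesenchymal receptor Fgfr1. Of 28 interleukins and cytokines 8 were lower and 1 higher. The interleukin 36 genes, which carry their older names in the files, were among the lower ones: Il1f6 had 10.8 and 1.79 RPKM, Il1f8 18.2 and 3.43 and Il1f9 58.7 and 20.9, and the male libraries had 10.4 and 18.9 RPKM of Il1f6. Il1r2, the decoy receptor of interleukin 1, had 52.1 and 9.16 RPKM, and Il1b was the higher gene with 2.67 and 6.97. Il17a, the cytokine of barrier lymphocytes, chosen after its values were seen, had 7.07 RPKM in the young female and 1.09 in the old female library against 4.94 and 6.12 in the males. Of 34 Wnt pathway genes 3 were lower and 2 higher, against 3.31% and 5.30% of all genes, and the median was 0.17. The lower ones were Dkkl1, with a log2 ratio of -2.17 (-1.08 in males), and the epithelial Wnt ligands Wnt7b and Wnt4, with -1.54 and -1.36. The higher members were the secreted Wnt modulators Sfrp2 and Wif1, with 2.07 and 1.54. Sfrp2 reached the mean of 1 RPKM only through the old female value.

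**Figure D3:**
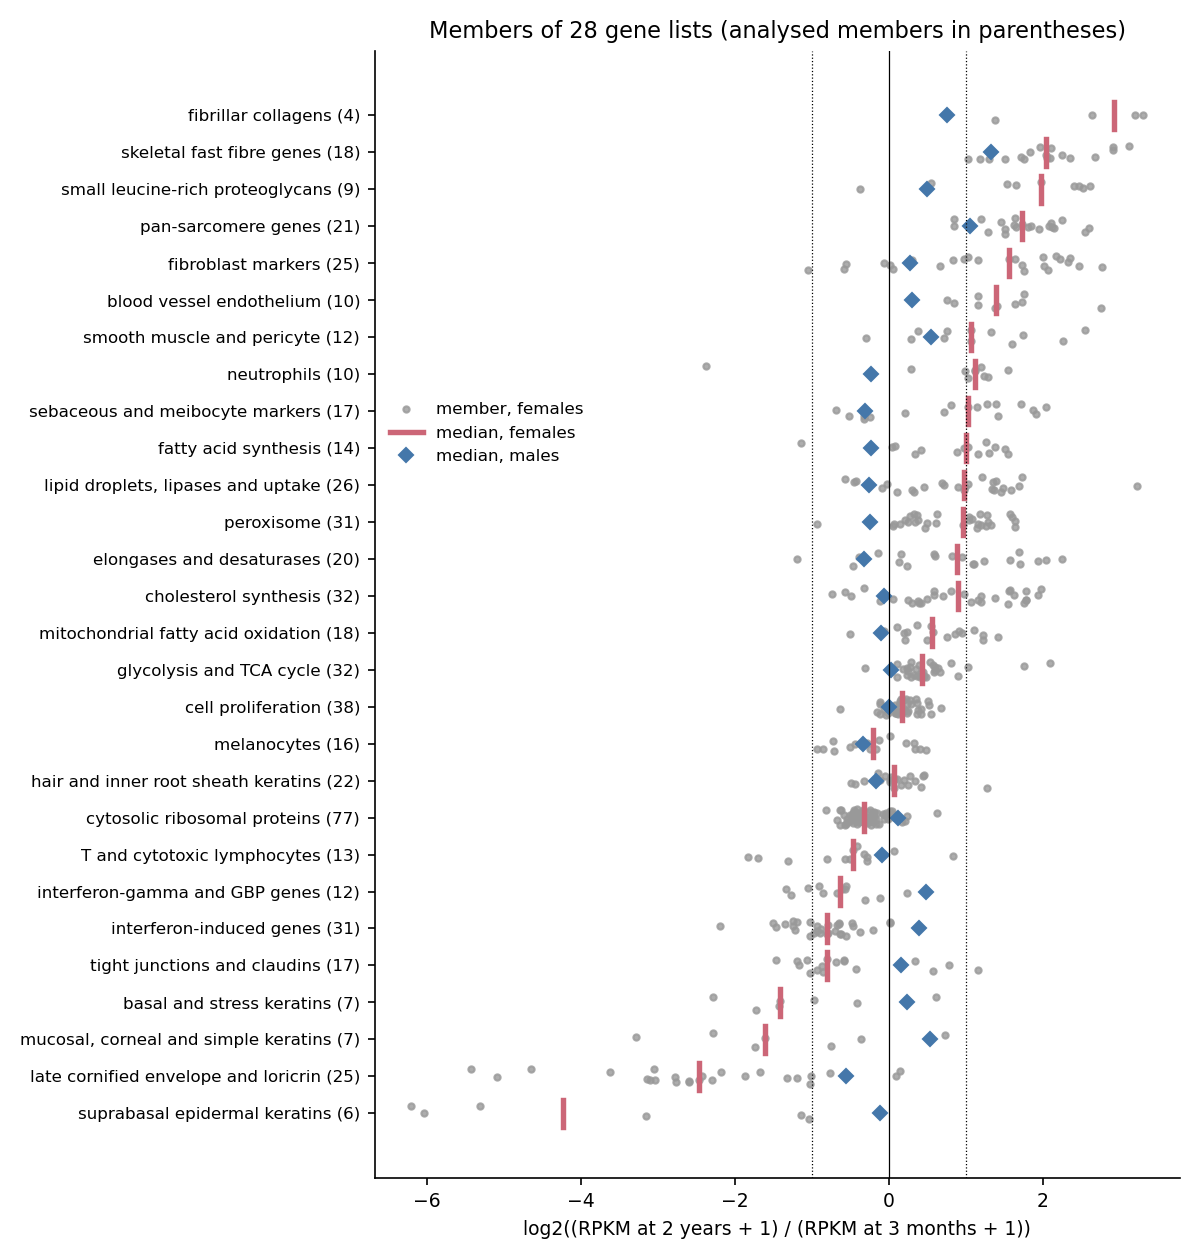
Log2 ratio of old to young female library (x axis) for every analysed member of 28 gene lists (grey points) with the female median (red bar) and the male median of the same list (blue diamond). Dotted lines mark 2-fold. The cornified envelope list and the keratin lists other than hair lie on the left with male medians nearer 0. The hair keratin list has medians of 0.06 in females and -0.17 in males. Muscle and matrix lists lie on the right with male medians above 0.

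Many lipid synthesis genes were higher in the old female library, with 1 lower member in several of the lists. Against the young male library, an alternative chosen after seeing the data, the medians stayed above 0 but were smaller: 0.27 for fatty acid synthesis, 0.17 for elongases and desaturases, 0.24 for ester-forming enzymes, 0.34 for cholesterol synthesis and 0.31 for peroxisomes. Fasn (0.55), Acsl4 (0.33), Acsl5 (0.56), Scd1 (0.63), Elovl3 (0.90), Hmgcs1 (0.76) and Abcd3 (0.61) were no longer 2-fold apart there, while Soat1 (1.02) and Lpl (2.10) were. Of 14 fatty acid synthesis genes 7 lay 2-fold or more higher, 1 lower, against 5.30% and 3.31% of all genes, and 13 lay above 0. Fasn, fatty acid synthase, had 25.0 RPKM in the young female, 74.8 in the old female, 50.9 in the young male and 34.7 in the old male library. Acsl5 and Acsl4, which activate fatty acids, had log2 ratios of 1.26 and 1.38, and Slc25a1, the carrier that exports citrate for synthesis, had 1.16. The exception was Acsl1, a relative of Acsl5, with 105 and 47.0 RPKM. In each of these genes except Acsl1 the young female library was the low one of the 4, and it was so in 13 of the 14.

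Elongation and desaturation followed, with 9 of 20 genes higher, 1 lower and a median of 0.88. Elovl3, which makes the very long chains of sebum and meibum, had 177, 842, 449 and 348 RPKM in the young female, old female, young male and old male libraries. Elovl4, which makes the longest chains, had 791, 1867, 1649.6 and 1145. Scd3, a desaturase of sebaceous cells, had 133, 510.5, 328 and 261. In all 3 the young female library was lowest, the old female highest, and the young male exceeded the old male. Elovl6, which lengthens palmitate, was the lower gene with 19.7, 8.02, 29.2 and 18.6 RPKM, and Fads2, the desaturase of polyunsaturated chains, had 9.17 and 6.36 in the female libraries.

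The ester-forming enzymes that give meibum its wax and sterol esters were higher in 8 of 18 genes and lower in 1, with a median of 0.83. Soat1, the sterol esterifying enzyme, had the highest ratio, 2.49 (54.7 and 311 RPKM), and lies on chromosome 1 from 156428108 to 156474328. Far2 and Far1, which reduce fatty acids to fatty alcohols, had 173 against 733 and 72.6 against 279 RPKM. The wax synthases were higher by less: Awat1 had 284 and 776 RPKM and Awat2 958 and 1990.3, close to the 1955 of the young male library. Mboat1, which remodels phospholipids, was the lower gene with 49.9 and 19.2 RPKM. Lipid droplet genes had 12 of 26 higher and 0 lower. Lpl, the lipase that takes up fat from blood lipoproteins, had the highest ratio of these, 3.22, with 7.71 and 79.9 RPKM against 17.9 and 18.5 in the males, so the old female library alone was high. Plin2, the coat protein of small droplets, had 378, 966, 818 and 518 RPKM, while Plin1, the coat protein of adipocyte droplets, was listed in the old female sheet alone.

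Cholesterol synthesis was higher in 15 of 32 analysed genes and lower in 0, with a median of 0.89. Hmgcs1, an early enzyme, had 169.6 against 525 RPKM in the young and old female libraries. Msmo1, a later one, had 421, 1247, 887 and 745 RPKM in the young female, old female, young male and old male libraries, and Stard4, a sterol carrier, 70.2, 279, 175 and 119. The whole pathway did not share this: Sc5d had 89.8 and 63.7 RPKM in the female libraries and Mylip, a ubiquitin ligase, 34.6 and 20.3. The female log2 ratio of Hmgcs1 was 1.62.

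The promoter of Hmgcs1 is shown because it was the only promoter of the cholesterol list that held the classical sterol regulatory element, spelled TCACNCCAC and searched on both strands. RefSeq windows of GRCm38.p6, 250 bases before to 50 bases after the start of a gene, were available for 24 of the 32 genes, and 1 of the 24 (4.17%) held it, against 1.41% of the 9147 analysed genes with a window. The capitals mark the match, which starts 137 bases before the annotated start. A match is a description of letters and not a bound site, and the window of a gene without one says nothing of its control.
Hmgcs1 (chr13:119690101-119690400, plus strand): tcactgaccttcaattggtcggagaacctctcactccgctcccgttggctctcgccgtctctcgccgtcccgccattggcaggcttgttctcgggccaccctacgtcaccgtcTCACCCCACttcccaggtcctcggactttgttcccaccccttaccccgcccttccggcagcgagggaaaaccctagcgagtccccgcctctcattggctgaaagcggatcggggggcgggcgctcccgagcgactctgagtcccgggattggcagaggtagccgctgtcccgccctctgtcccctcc

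Peroxisomes, which shorten very long chains and begin the making of ether lipids, showed the most even pattern of the lipid lists: of 31 genes 15 lay 2-fold or more higher, 0 lower, 30 above 0, and the median was 0.96. Abcd3, the carrier of fatty acids into peroxisomes, had 136, 423, 277 and 231 RPKM in the young female, old female, young male and old male libraries. Cat, catalase, had 23.9, 74.3, 42.5 and 33.5, and Ehhadh, an oxidation enzyme, 7.41, 25.2, 12.2 and 10.1. The 1 gene below 0 was Agps, of ether lipid synthesis, with 20.2 and 10.1 RPKM in females. Of 18 mitochondrial oxidation genes 4 were higher and 0 lower, with a median of 0.56 and Slc25a20, the carnitine carrier, at 37.3 and 101 RPKM. Acadl, an acyl-CoA dehydrogenase, lay below 0 with 81.8 and 57.0.

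Genes that mark the sebaceous and meibomian cell type itself had a median of 1.03, with 9 of 17 at least 2-fold higher and 0 lower. Pparg, the master receptor of these cells, had 9.87, 34.5, 23.5 and 16.8 RPKM in the young female, old female, young male and old male libraries. Mgst1 had 329.6 and 1244 RPKM, and Cyp4f39, an omega-hydroxylase of very long chains, 130.1 and 478. Plet1, a marker of the duct and of follicle keratinocytes, was on the other side, with 776 and 480.4. Of 12 PPAR and RXR genes 2 were higher, Pparg and Ppara, while Rxra and Rxrb, their partners, had ratios of 0.01 and -0.06. The sebaceous and meibomian markers summed to 4416 RPKM in the young female, 11369 in the old female, 8138 in the young male and 6612 in the old male library. In the same order the suprabasal keratins summed to 1809, 231, 1460.2 and 1244 RPKM. The part of tissue mix in the lipid ratios was not tested.

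Steroid and retinoid genes, which gland cells also use, leaned the same way. Of 16 steroid receptor and enzyme genes 8 lay 2-fold or more higher and 0 lower with a median of 0.88: Hsd17b7, which also serves cholesterol synthesis, had 31.8, 111, 67.1 and 56.9 RPKM in the young female, old female, young male and old male libraries, and Hsd17b2, which inactivates sex steroids, 65.7, 157, 99.4 and 93.5. For both, the young female library was lowest and the old female highest. Among the 8 was also Hsd17b4, which the peroxisome list holds too, with 64.4 and 144 RPKM in the young and old female libraries. Hsd17b11 lay on the other side with 56.1 and 31.6 in females. Of 18 retinoid genes 5 were higher and 1 lower: Rdh11, a retinol dehydrogenase, had 60.6 and 175 RPKM in the young and old female libraries, and the lower gene, Aldh1a3, which makes retinoic acid, 74.1 and 30.6.

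Enzymes of the skin's water barrier were split. Of 21 acylceramide genes 5 lay 2-fold or more higher at 2 years and 2 lower. The higher ones included Elovl1, Elovl4 and Cyp4f39, which gland and epidermis both use, and Abca12, the lipid transporter of lamellar bodies, with 5.54 and 15.1 RPKM. The lower ones were Alox12b and Sdr9c7, which oxidise the ceramide for attachment to the cornified shell, with 5.28 against 0.206 and 12.9 against 2.72 RPKM. In males Alox12b had 4.75 and 4.94. Glutathione and oxidant defence was split as well, with 5 of 38 higher and 5 lower: Mgst1 and Cat were high, and Gsto1 and Gsta4, with 2294 and 586 RPKM, low.

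**Figure D4:**
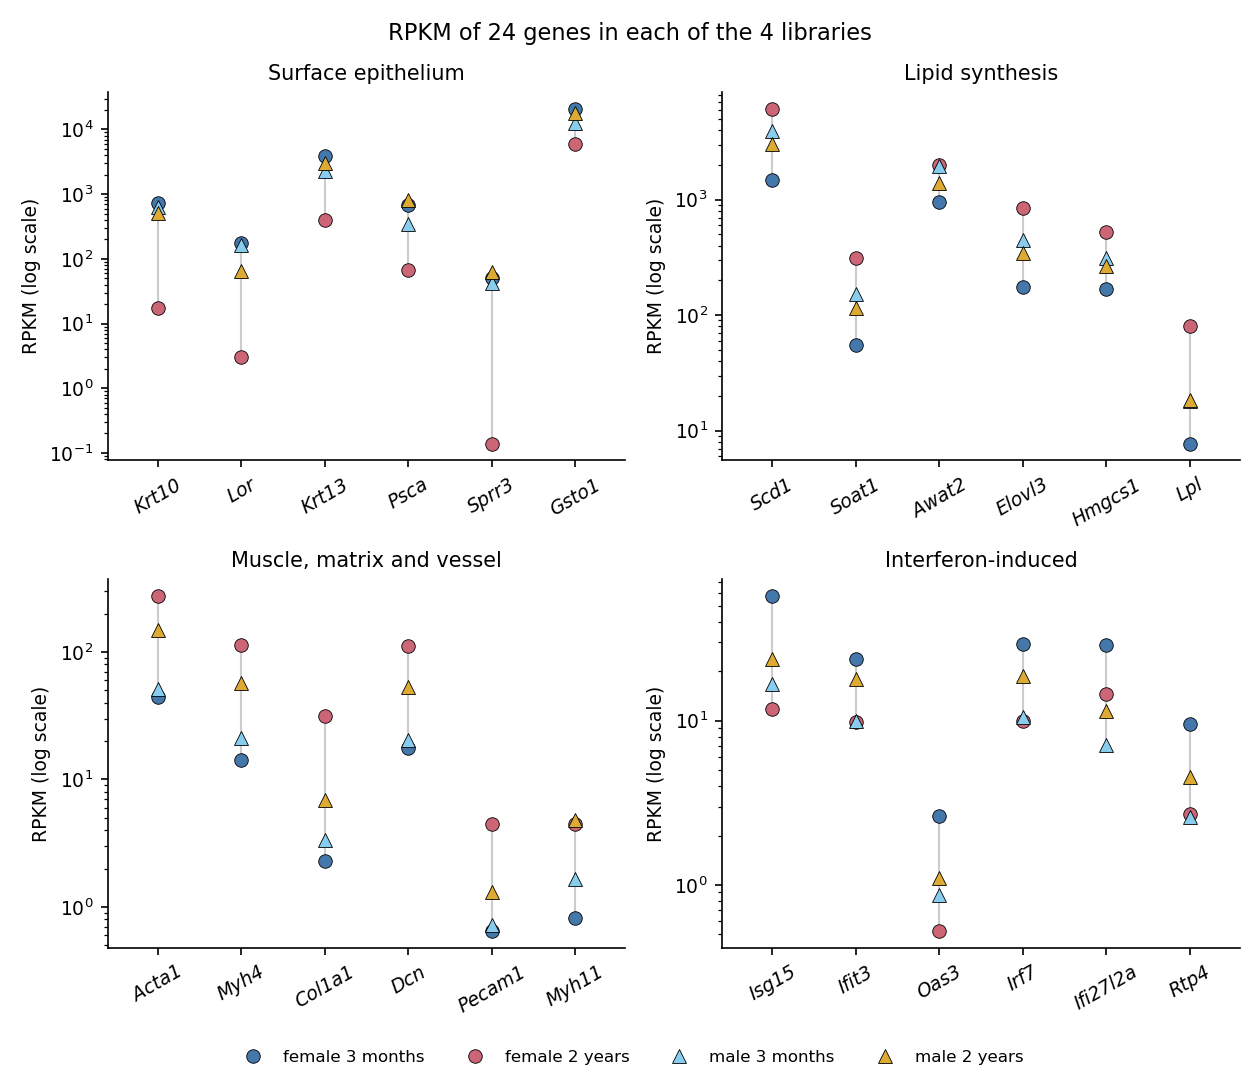
RPKM (y axes, log scale) of 24 genes in the 4 libraries, 6 genes a panel; circles are female and triangles male libraries. The old female library is the lowest for all 6 surface genes and the highest for all 6 lipid genes, and both old libraries exceed both young ones for all 6 muscle, matrix and vessel genes; the genes were chosen after their values were seen.

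Striated muscle was higher in the old library of both sexes, which sets it apart from the lipid and keratin genes. All 18 analysed fast fibre genes lay 2-fold or more higher in the old female library, with a median of 2.04, and 13 of them in the old male, with a median of 1.32. Atp2a1, which pumps calcium back after a twitch, had 24.1 RPKM in the young female, 215 in the old female, 38.7 in the young male and 107 in the old male library. Mybpc2, fast myosin-binding protein, had 2.92, 28.4, 4.35 and 14.4. Tnnt3, fast troponin T, had 48.5, 251, 55.4 and 153. In all 3 both old libraries exceeded both young ones. Pfkm and Pvalb had the smallest female ratios named, 1.02 and 1.18. Among 21 sarcomere genes shared by fibre types, 19 were higher in the old female library with a median of 1.73, led by Acta1 (44.4 and 275 RPKM), Des (6.36 and 41.8) and Ckm (43.2 and 209).

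Slow fibre and nerve-muscle genes did not follow the fast genes one by one. Of 15 slow and cardiac genes listed in any sheet 9 were analysed. Of the 9, 2 lay 2-fold or more higher, Mybpc1 (1.31 and 12.8 RPKM) and Mb, myoglobin (6.19 and 25.3). The slow muscle gene Myl2, not analysed, had 1.16 RPKM in the old female and 1.04 in the old male library and was in neither young sheet. Tnni1, slow troponin I, had 1.18 and 1.20, Tpm3 57.6 and 35.0, and Atp2a2, a pump also used outside muscle, 58.2 and 89.0. Of 10 neuromuscular and myogenic genes 2 were higher, Mstn, the inhibitor of muscle growth (0.598 and 2.85 RPKM), and Dok7, an adaptor at the nerve-muscle junction (1.19 and 3.58). Cdkn1a, which is also induced by stress, had 100.4 and 100.3 RPKM, and Fbxo32, a ligase known from wasting muscle, 21.5 and 28.1.

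Many genes of the dermal matrix were higher in the old female library. Of 11 fibrillar collagen genes 4 were analysed, and all 4 lay 2-fold or more higher with a median of 2.91. Of the 4, Col5a2 reached the mean of 1 RPKM only through the old female value, so the count is a description and no support. Col1a1 had 2.30, 31.6, 3.34 and 6.95 RPKM in the young female, old female, young male and old male libraries. In the same order Col1a2 had 3.05, 35.8, 3.99 and 8.73, and Col3a1 4.71, 34.7, 5.24 and 8.64. The old male library exceeded the young male by 0.63 to 0.96 on the log2 scale in these 3. Small leucine-rich proteoglycans, which coat and space collagen fibrils, were higher in 7 of 9. Dcn had 17.6, 112, 20.4 and 52.9 RPKM and Lum 2.55, 19.4, 1.46 and 5.28, so for these both old libraries were high. Kera, keratocan, best known from corneal stroma, had 0.147, 5.36, 0.132 and 0.235. Fmod, fibromodulin of tendon, had 0.452, 6.65, 0.461 and 1.05. Both are among the 7, but they reached the mean of 1 RPKM only through the old female value. Their being low elsewhere therefore follows from the filter. Of 12 analysed elastic fibre and microfibril genes 4 were higher and 1 lower, against 5.30% and 3.31% of all genes. Mfap4, Mfap5 and Eln had log2 ratios of 2.51, 1.93 and 1.38. Mfap5 and Eln reached the mean of 1 RPKM only through the old female value, so the count of higher genes is a description and no support. Efemp1 was the lower gene, with 82.1 and 31.4 RPKM in the young and old female libraries. Fbln1 and Ltbp4 also lay below 0, with 31.8 against 19.2 and 29.7 against 24.1. The list summed to 170.1 and 150.2 RPKM in these libraries.

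Mmp3, stromelysin, which cleaves proteoglycans and activates other metalloproteinases, had 0.891 RPKM in the young female, 29.6 in the old female, 1.07 in the young male and 4.27 in the old male library. It lies on chromosome 9 from 7445822 to 7455974, and its log2 ratio of 4.02 was the second highest of all genes. Of 21 matrix proteases and inhibitors 6 lay 2-fold or more higher and 0 lower, with a median of 0.66 and 16 above 0. Mmp14, Timp2 and Plau did not share this, with ratios of -0.08, -0.03 and -0.15. Among the higher were the inhibitors Serpinf1 (2.80 and 25.3 RPKM) and Serping1 (4.09 and 33.0). Of 25 fibroblast markers 15 were higher and 1 lower; Pi16 had 2.10 and 20.1 RPKM, Mgp 4.46 and 29.3 and Dpt 2.68 and 17.7. The lower one was Ly6a, also an epithelial gene, with 684 and 331 RPKM, and Gsn, likewise widely expressed, had 329.7 and 224.

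Basement membrane genes lay on both sides of 0. Of 19 members 5 lay 2-fold or more higher and 0 lower, and the median was -0.35. Lama4, Lamb1 and Col4a1, chains found around vessels and muscle, had log2 ratios of 1.53, 1.45 and 1.43. Col17a1 and Lamb3, which anchor the epidermis, and Col4a6, of epithelial membranes, had -0.80, -0.67 and -0.97, none of them 2-fold apart. In males these 6 ratios ran from -0.36 to 0.13.

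Vessels, smooth muscle and fat were higher. Of 25 endothelial genes 10 were analysed, some through the old female value alone, as Pecam1 (0.648, 4.46, 0.720 and 1.31 RPKM) was, so their count is a description and no support. Of the 10, 8 lay 2-fold or more higher with a median of 1.39. Aqp1, the water channel of endothelium, had 1.24, 14.1, 1.65 and 5.67 RPKM in the young female, old female, young male and old male libraries, Plvap 2.54, 10.9, 4.93 and 4.29, and Cd34 4.19, 15.0, 5.17 and 6.44. Of 12 smooth muscle and pericyte genes 7 were higher. Acta2, smooth muscle actin, had 4.86, 27.0, 9.16 and 19.9 RPKM, so both old libraries were high. Of 19 adipocyte genes 9 were analysed, and 5 of the 9 were higher with a median of 1.01. Car3 had 1.35 and 15.5 RPKM in the young and old female libraries. Cfd, adipsin, had 0.801 and 10.8, and it reached the mean of 1 RPKM only through the old female value. Fabp4 was not 2-fold apart, with 41.5 and 52.5, and Lipe, the hormone-sensitive lipase, had 6.11 and 4.22. Pparg and Cebpa, which belong to this list too, are shared with the gland. The defining fat gene Adipoq had 3.45 RPKM in the old female library, was missing from the young female sheet, and had 0.153 and 0.223 in the male ones.

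Complement genes had 8 of 16 at least 2-fold higher and 0 lower, with a median of 0.94. Cfd, among the 8, reached the mean of 1 RPKM only through the old female value, so the count is a description and no support. C1s1, a protease of the classical pathway, had 1.59, 12.9, 2.04 and 3.53 RPKM, and Cfb, of the alternative pathway, 14.4, 33.3, 13.4 and 26.4. The fluid-phase regulator Clu had 105 and 70.0 in females. Igfbp7, Igfbp6 and Igfbp4, binding proteins of insulin-like growth factors made by stroma and vessels, were the 3 higher genes of 12 in their list, with log2 ratios of 2.25, 2.22 and 1.75, while the receptor gene Igf1r had -0.46.

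Interferon-induced genes were lower in the old female library, and here the young female library was the one that differed most from the others. These genes are switched on when interferon, made in response to viruses and danger signals, activates the factors that bind a response element in their promoters. Of 31 analysed members 10 lay 2-fold or more lower and 0 higher, against 3.31% and 5.30% of all genes, with a median of -0.80 in females and 0.39 in males. Isg15 had 57.5 RPKM in the young female, 11.8 in the old female, 16.8 in the young male and 23.8 in the old male library. Irf7, the factor that amplifies the response, had 29.3, 9.94, 10.6 and 18.7, and Rtp4 had 9.51 and 2.72 in the female libraries. Oasl2, of the family that senses viral RNA, had 65.9, 25.2, 29.4 and 45.0. The young female library was the highest of the 4 for 27 of the 31 and further from the male median for 26. Ifitm3, Lgals3bp and Mx1 did not share it, with ratios of -0.21, 0.02 and 0.01. The interferon genes Ifnb1, Ifng, Ifnk and Ifnl3 were listed in no sheet.

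**Figure D5:**
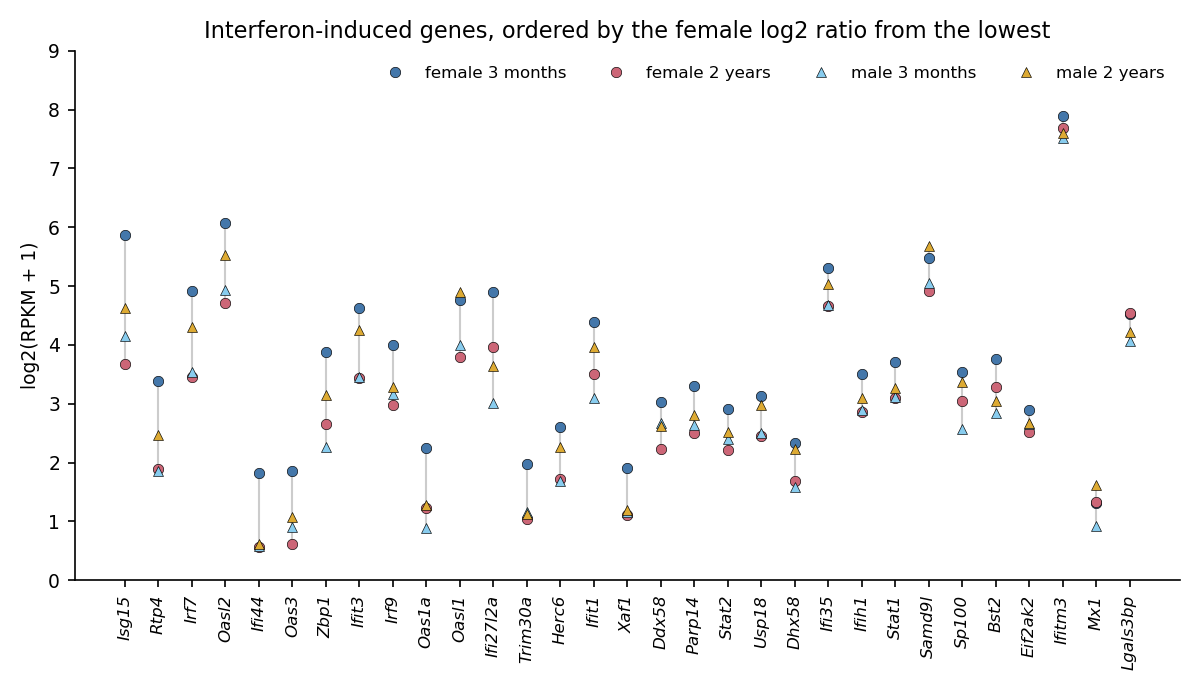
log2(RPKM + 1) (y axis) of the 31 analysed interferon-induced genes in the 4 libraries, ordered by the female ratio. The young female library (blue circles) is highest for 27 of 31 genes, and the old male (yellow triangles) exceeds the young male for 29.

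Promoters of 3 interferon-induced genes are shown because they hold the core of that response element and had the largest differences among those that do. The core was searched as GAAA, any 2 bases, GAAA, on both strands. It was found in 12 of the 23 members with a RefSeq window (52.2%) against 3.62% of the 9147 analysed genes with one, and in 8 of 11 genes of the interferon-gamma list (72.7%). The list is known for this element, so the share describes the list and not the libraries. Among the 299 genes with a window that lay 2-fold or more lower at 2 years, 5.69% held it, and among the 458 higher ones 3.28%. Capitals mark the matches in GRCm38.p6, which overlap each other in Isg15 and lie on the opposite strand in Ifit3.
Isg15 (chr4:156200769-156201068, minus strand): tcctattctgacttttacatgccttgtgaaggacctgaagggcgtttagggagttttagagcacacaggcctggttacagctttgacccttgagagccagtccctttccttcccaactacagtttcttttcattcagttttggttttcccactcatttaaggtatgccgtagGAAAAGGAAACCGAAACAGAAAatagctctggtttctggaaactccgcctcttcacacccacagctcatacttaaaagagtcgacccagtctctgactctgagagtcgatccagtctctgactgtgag
Oas3 (chr5:120777610-120777909, minus strand): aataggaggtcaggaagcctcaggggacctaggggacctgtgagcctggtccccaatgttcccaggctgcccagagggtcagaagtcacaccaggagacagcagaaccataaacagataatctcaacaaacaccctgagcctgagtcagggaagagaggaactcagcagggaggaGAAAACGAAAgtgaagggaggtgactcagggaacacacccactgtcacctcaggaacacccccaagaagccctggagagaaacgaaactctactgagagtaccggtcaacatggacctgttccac
Ifit3 (chr19:34583279-34583578, plus strand): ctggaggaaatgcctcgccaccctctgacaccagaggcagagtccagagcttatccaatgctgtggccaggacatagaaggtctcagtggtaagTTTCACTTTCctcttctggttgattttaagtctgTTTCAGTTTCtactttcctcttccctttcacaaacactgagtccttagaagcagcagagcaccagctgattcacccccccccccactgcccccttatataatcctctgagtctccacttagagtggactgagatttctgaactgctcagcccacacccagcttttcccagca

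Both other genes shared the order seen in Isg15. Oas3 had 2.62 RPKM in the young female, 0.525 in the old female, 0.873 in the young male and 1.10 in the old male library, and Ifit3 23.6, 9.78 and 9.99 in the first 3 of these, with a male log2 ratio of 0.79. In both, as in Isg15, the young female library was the highest of the 4 and the old male exceeded the young male. Their female log2 ratios were -1.25, -1.19 and -2.19.

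Among genes of the interferon-gamma response 3 of 12 lay 2-fold or more lower and 0 higher, and the young female library was the highest of the 4 for 10. Gbp2, a defence GTPase, had 54.9, 22.2, 23.1 and 40.6 RPKM in the young female, old female, young male and old male libraries, and Irf1 had 72.5, 28.1, 40.3 and 60.5. Psmb8, an immunoproteasome subunit, was the 1 lower gene of 21 in the MHC class I list, with 114 and 52.8, while B2m and H2-K1, which that response also raises, had 824 against 881 and 565 against 553. In T and cytotoxic cells 3 of 13 genes were lower: Gzma, a granzyme, had 12.7 RPKM in young females and 1.52 to 3.23 elsewhere, and Ccl5, a chemokine of effector cells, had 9.11 against 1.34 to 1.84. For both, the young female library alone was high. With the young male in place of the young female library, the ratio of the old female library was 0.75 for Gzma, 0.26 for Ccl5 and 0.05 for Rtp4.

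Other immune cells differed by type. Neutrophil genes had 7 of 10 at least 2-fold higher and 1 lower with a median of 1.12, but the young female library was the lowest of the 4 for 9 of the 10, and S100a8 and S100a9 had their highest values in the males. Of 24 macrophage genes 3 were higher and 1 lower, against 5.30% and 3.31% of all genes, with a median of 0.61. Lyz2, lysozyme, had 57.1 and 165 RPKM, Pf4 1.46 and 5.01, and the lower gene, Folr2, 27.9 and 8.53. Cd207, langerin of Langerhans cells, had 2.20, 0.278, 1.70 and 0.525, so both old libraries were low. MHC class II genes hardly differed, with 0 of 7 apart and H2-Aa at 77.8 and 68.7 RPKM. Ear2, a ribonuclease of eosinophils and macrophages, had 16.6, 0.987, 10.7 and 0.868, low in both old libraries, while its relative Ear1 had 2.55 and 5.72 in females. Igj, the joining chain of secreted antibody, had 0.786, 8.19, 1.07 and 2.91.

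Of 31 chemokine genes 8 lay 2-fold or more higher and 1 lower. Ccl8, which draws monocytes, had 2.91, 19.4, 2.35 and 8.71 RPKM in the young female, old female, young male and old male libraries. Ccl28, a chemokine of mucosal glands, had 2.75, 12.2, 3.02 and 9.40, and Ccl11, eotaxin, 0.379, 3.44, 0.263 and 1.86. Both old libraries exceeded both young ones in all 3. Ccl11 reached the mean of 1 RPKM only through the old female value, so the count of 8 is a description and no support. Cxcl14, of skin, had 30.5 and 54.2 in females, and Cxcl16 24.1 and 18.5.

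Secreted defence proteins held the highest ratio of all genes. Reg3g, a lectin that kills Gram-positive bacteria, on chromosome 6 from 78466268 to 78468874, had 26.8 RPKM in the young female, 462 in the old female, 50.7 in the young male and 125 in the old male library, a female log2 ratio of 4.06. Of 26 antimicrobial and acute-phase genes 11 lay 2-fold or more higher and 4 lower. Lcn2, which binds bacterial iron carriers, had 78.8 and 233 RPKM and Sftpd, a collectin, 4.37 and 17.1, while the beta-defensin genes Defb14 and Defb4 had log2 ratios of -3.27 and -3.10, with 15.2 and 0.688 RPKM of Defb14. In males Defb14 had 9.83 and 12.2. Pglyrp1, a peptidoglycan-binding protein and the most abundant of the list, had 2841, 1751, 1813 and 3582.

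Some genes of goblet cells and secreting glands were higher. Of 17 mucin and goblet cell genes 5 lay 2-fold or more higher and 0 lower: Muc5ac, the gel-forming mucin of the tear film, had 200.1, 457, 171 and 216 RPKM in the young female, old female, young male and old male libraries, Muc5b 5.33, 14.1, 4.24 and 4.15, and Tff1 135, 319, 124 and 196. The membrane mucins of surface cells lay below 0, with Muc4 at 151 and 80.0, Muc20 at 69.5 and 36.8 and Muc1 at 159.7 and 85.6. Of 7 analysed secretoglobin and gland secretion genes 4 were higher. Sult1c1, a sulfotransferase, had 6.41, 52.5 and 6.65 RPKM in the first 3 of these and a male log2 ratio of 1.46, Ceacam10 9.31, 48.4, 11.3 and 34.1, and Crisp3, a cysteine-rich secretory protein named for its ratio of 3.65, had 1.87, 35.0, 1.26 and 4.56. All 3 were higher in both old libraries. Scgb1a1 had 84.2 and 66.7 in females and 199.8 and 130.2 in males.

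Of 6 analysed water channel genes 3 lay 2-fold or more higher and 2 lower. Aqp3 and Aqp5, of stratified and glandular epithelium, had 1155 against 394 and 405 against 110.2 RPKM in the young and old female libraries, log2 ratios of -1.55 and -1.87. Aqp1, of vessels, and Aqp4, of muscle and gland, had 2.75 and 1.22, and 1.33 and 1.24 in males. Aqp11 had 0.724 and 2.53 RPKM, and Aqp9 7.42 and 12.2. Aqp11 reached the mean of 1 RPKM only through the old female value, so the count of 3 is a description and no support.

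A few of the highest ratios belonged to genes outside every list. Bex1, Car1 and Gm436 among them reached the mean of 1 RPKM only through the old female value, so their being low elsewhere follows from the filter and the choice. Idi2, an isopentenyl diphosphate isomerase, had 0.480 RPKM in the young female, 21.2 in the old female and 1.38 in the young male library, and a male log2 ratio of 0.07. Bex1, a small X-linked signalling protein known from neurons, had 0.470, 12.4, 0.705 and 0.556, Car1, a carbonic anhydrase, 0.230, 7.34, 0.641 and 0.679, and Gm436 0.464, 9.98, 0.792 and 0.984. Ceacam12 had 6.21, 57.3, 14.9 and 16.4.

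Genes that every cell uses differed little one by one, but leaned in 1 direction by list. Of 77 analysed ribosomal protein genes 0 were 2-fold apart, 67 lay below 0, and the median was -0.32 in females and 0.12 in males; Rps14 had 1555, 882, 1038 and 1179 RPKM in the young female, old female, young male and old male libraries. Many of these genes have processed copies, and the sources used here do not say how reads were shared with them. Respiratory chain genes had a median of 0.27 with 49 of 54 above 0, and the 1 gene 2-fold apart was Cox6a2, the muscle form, with 4.75 and 22.8 RPKM. Glycolysis and citrate cycle genes had 0.43, and their 3 higher members were the muscle forms Eno3, Pgam2 and Pfkm. Lysosome and proteasome genes had 0.39 with 0 of 39 apart.

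Proliferation, cell cycle arrest and pigment genes had no analysed member 2-fold apart. Over 38 proliferation genes the median was 0.17; Mki67 had a ratio of 0.68, and Ccnd1 had 74.6 and 47.5 RPKM. Over 23 CDK inhibitor and p53 target genes it was 0.07, with Cdkn1b at 37.6 and 38.7 and Cdkn2b at 24.3 and 14.1. Cdkn2a, the inhibitor known to accumulate in aged tissue, was listed at 1.40 RPKM in the old female and 0.323 in the old male library and in neither young sheet. Over 16 melanocyte genes the median was -0.20, with Dct at 48.0, 28.7, 40.7 and 31.2 RPKM. Of 20 clock genes, which depend on the hour of dissection, 3 were lower and 2 higher, against 3.31% and 5.30% of all genes. The output factors Dbp, Tef and Hlf had 59.2 against 24.6, 50.8 against 22.1 and 23.6 against 9.27 RPKM. The hour of dissection is not given in the labels.

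Corneal genes were called on both sides. Of 9 analysed corneal and retinal genes 4 lay 2-fold or more lower and 2 higher. Aldh3a1, a detoxifying enzyme abundant in corneal and conjunctival epithelium, was lower. It had 1649.6, 408, 1093 and 1243 RPKM in the young female, old female, young male and old male libraries. The higher ones were Cryab, a chaperone also found in muscle, and Kera, which passed the filter only through its old female value. Of 12 Schwann cell and myelin genes 2 were lower and 1 higher, against 3.31% and 5.30% of all genes. The lower ones, Mal and Pllp, are known from epithelium too, with 971 against 235 and 108 against 36.7 RPKM. Of 38 heat shock and immediate early genes, which respond to handling of tissue, 2 were lower and 1 higher, against 3.31% and 5.30% of all genes. Dusp1 had 99.1, 36.4, 51.3 and 50.4 RPKM, Hspa1a 34.8, 16.4, 32.6 and 25.8 and Egr3 14.2, 37.0, 28.3 and 22.6. Of 25 hair follicle genes 1 was lower and 1 higher, against the same shares of all genes. The lower one was Krt15 and the higher one Cd34, which vessels and fibroblasts also express.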

How the data were processed

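Total RNA of whole lower eyelid was sequenced as 4 libraries, 1 for each sex and age, on Illumina instruments. The authors deposited RPKM per gene in sheets of expressed genes, each listing genes of at least 0.125 RPKM; a gene missing from a sheet lies below that or has no value. TopHat, Cufflinks and mm10 are named in the submitters' processing notes, with no version or role. The sources used here give neither the counting rule nor the strand setting, so near-identical, overlapping and antisense genes (Lce, Sprr2, Defb, Ear and Scgb families, ribosomal proteins) are uncertain; Gapdh, with many pseudogenes, was listed at 8.48 and 11.9 RPKM in the female libraries. A column the authors deposited as a raw count holds summed base coverage, by its values (3.16 to 3.91 gigabases a library), so read depth is unknown and no count model was used. The authors' fold and p columns were not used.

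From the deposited RPKM, log2((2 years + 1)/(3 months + 1)) was computed for females over the 12073 genes listed in all 4 sheets with a mean of at least 1 RPKM, after 2 symbols on more than 1 row were left out. The added 1 RPKM understates the ratio of low genes. Genes low elsewhere could reach the mean of 1 RPKM through the old female value alone, as Cldn5, Ccl11 and Aqp11 did. In lists of low genes this favours members higher in the old female library. Called means at least 2-fold. With 1 library a side no test was run, and RPKM give no precision for a single value. The 75 gene lists, with 1757 symbols of which 1313 were analysed, were chosen with earlier results of these data known. Named genes were the 20 highest and 20 lowest ratios, for each list the 3 highest, 3 lowest and 3 most abundant, all members of lists under 10, the 10 most abundant of each female library, and genes at the edges; others named (Ifit3, Oas3, Il17a, Ppl, Evpl, Ivl, Kcnv1, the genes missing from a sheet and those drawn by library) were chosen after their values were seen. Promoter windows came from RefSeq on GRCm38.p6, matched by symbol. Python 3.11.15, pandas 2.3.3, NumPy 2.4.6 and matplotlib 3.10.9 were used.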

Additional observations from a re-analysis of the deposited data

Results flagged for a closer look

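For 8 gene lists the median log2 ratio of old to young lay on opposite sides of 0 in the sexes, by at least 0.25 on each side; with 1 library a group the difference was not tested. Keratins of wet epithelium had -1.61 in females and 0.53 in males. Interferon-induced genes had -0.80 and 0.39, and interferon-gamma genes -0.64 and 0.49. The opposite signs were seen in lipid lists, with elongases and desaturases at 0.88 and -0.33, lipid droplet genes at 0.98 and -0.25, sebaceous markers at 1.03 and -0.31, adipocyte genes at 1.01 and -0.27 and acylceramide genes at 0.48 and -0.37.

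In 10 single genes the female and male ratios were both at least 2-fold and opposite, again not tested. Lower in the old female and higher in the old male library were Lce3a (-4.65 and 1.06), Psca (-3.33 and 1.23), Lce3b (-3.05 and 1.58), BC100530 (-2.08 and 1.05), Sprr1b (-1.46 and 1.62), S100a2 (-1.12 and 1.12) and Clca4 (-1.10 and 1.23), most of them genes of surface epithelium. Higher in the old female and lower in the old male library were the serum amyloid genes Saa2 (1.92 and -1.04) and Saa1 (1.67 and -1.16), of the acute-phase response, and Acoxl (1.71 and -1.26), an acyl-CoA oxidase-like gene.

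Outside the analysed genes, 28 genes had at least 1 RPKM in the old female library and were missing from the young female sheet.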

How the results depend on the processing

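The counts of 640 higher and 400 lower genes depended on how low genes were treated and on the young library used. They were 319 and 238 with 5 RPKM added in place of 1, and with 0.1 added 881 and 502. A minimum mean of 5 RPKM left 393 higher genes. With the mean of both 3-month libraries as comparator the counts were 390 and 229, and with the young male library alone, an alternative chosen after seeing the data, 309 and 135, of which 277 and 118 were among the 640 and 400. The remaining filters and scalings gave 550 to 705 higher and 401 to 480 lower; the share of higher among called genes was 61.5%, and 53.6% to 69.6% over the 10 alternatives. Against the young male library 113 named genes were no longer 2-fold apart and 29 of 74 list medians moved by 0.25 or more, lipid lists among them. Of 535 named genes, those that reversed did so against the young male library, namely Ccl5 (0.26), Gzma (0.75), Igtp (0.19), Rarres1 (-0.16), Rtp4 (0.05), S100a8 (-1.23) and S100a9 (-1.41), and S100a8 (-0.49) did also against the mean of both. List medians reversed for elastic fibres (-0.29) and T cells (0.13) at a mean of at least 5 RPKM, for interferon-gamma genes (0.12) against the young male library, and for mast cells and eosinophils without the filter (0.76) and with the filter on the female sheets (0.92). The cause was not tested. No paired analysis was possible because each group has 1 library and no test was run. Depth is unknown, and without the old female library there is no comparison.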

Other observations

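Genes listed in 1 female sheet only could not be given a ratio, since a missing gene lies below 0.125 RPKM or has no value. The old female sheet listed 787 genes that the young female sheet lacked, 28 of them at 1 RPKM or more. Secretoglobins were among these, with Scgb1b3 at 5.55 RPKM and Scgb2b20 at 3.16, the latter with 0.226 in the young and 5.54 in the old male library. Scgb1b20 and Scgb2b7, at 1.62 and 1.21 RPKM, were missing from both male sheets as well. The fat genes Adipoq and Retn had 3.45 and 1.84 RPKM, the venule receptor gene Ackr1 2.45, the pericyte gene Pdgfrb 1.20, the proteoglycan gene Epyc 2.13 and the slow muscle gene Myl2 1.16. Cxcl13, which draws B cells, had 2.32 RPKM in the old female and 1.87 in the old male library and was in neither young sheet. Of the 28, 13 were listed in the old male sheet and missing from the young male one, and 13 were in both male sheets, all higher in the old male library.

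The young female sheet listed 287 genes that the old female sheet lacked, 11 of them at 1 RPKM or more, and all 11 were in both male sheets. Serpinb12, a protease inhibitor of squamous epithelium, had 13.1 RPKM there and 19.1 and 16.2 in the young and old male libraries. Krt76, a keratin of palate and skin, had 1.78, 1.54 and 0.677 in the same order, and Skint9, of a family known from thymus and skin, 2.78, 0.633 and 0.301. In 10 of the 11 the old male library was below the young male one. Across sexes, 201 genes were listed in both 2-year sheets and in neither 3-month sheet, and 65 the other way round.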
